A study of Mus musculus with 8 samples.

Results

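Serum amyloids, orosomucoids, lipocalin 2, haptoglobin and haemopexin are plasma proteins that the liver secretes in larger amounts during inflammation, the acute-phase response. Their genes were followed here in livers labelled as knockouts of the ubiquitin ligase Huwe1. The 10 genes Saa1, Saa2, Saa3, Saa4, Orm1, Orm2, Orm3, Lcn2, Hp and Hpx were taken by symbol from the authors' deposited table, which lists 16640 genes, and all 10 were found. The Huwe1_LKO group held 4 livers of mice with a liver-specific Huwe1 knockout, and the WT group held 4 livers of mice labelled wild type. All 8 mice were 1 year old and ate a chow diet at will, and whole liver RNA was sequenced in bulk. For the allele, the Cre driver, the deleted exons, the strain and the sex, no source used here gives a value. The data are the authors' group values, 1 per gene and group, so values per liver were not analysed here. They are in normalized reads, scaled by the authors for depth, and their ratio follows a fold change that appears shrunken toward 0.

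As background, interleukin-6 and interleukin-1 released by macrophages act on hepatocytes through STAT3, NF-kappaB and C/EBP factors and raise these transcripts within hours. Serum amyloid A travels on high-density lipoprotein, orosomucoid (alpha-1-acid glycoprotein) binds basic drugs and steroids, and lipocalin 2 captures bacterial siderophores and so withholds iron. Haptoglobin binds free haemoglobin and haemopexin binds free haem, and both complexes are then cleared by receptors on macrophages or hepatocytes.

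Near-identical copies within these families decide how far a single gene's value can be read, so their sequences come first. Saa1 and Saa2 lie beside each other on mouse chromosome 7 and shared 95.1% of 366 aligned coding positions in GENCODE transcripts (GRCm38). The first 150 coding bases of both are shown to mark how far apart the differences lie, with the bases that differ in capitals.
Saa1: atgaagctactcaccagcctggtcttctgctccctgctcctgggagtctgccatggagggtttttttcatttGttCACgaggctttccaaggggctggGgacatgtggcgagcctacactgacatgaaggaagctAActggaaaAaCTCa
Saa2: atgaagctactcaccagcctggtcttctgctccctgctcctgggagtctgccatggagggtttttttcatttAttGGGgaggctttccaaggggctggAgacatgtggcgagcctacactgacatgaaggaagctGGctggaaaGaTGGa
No difference falls in the first 72 bases, and 11 of the 150 bases differ. Over whole transcripts, 14.8% of the 50-base windows of Saa1 also occur in another gene, namely Saa2 or Saa3, but no window of 100 bases does. Orm1 and Orm2, on chromosome 4, shared 89.9% of 621 coding positions, and their first 150 coding bases are shown in the same way.
Orm1: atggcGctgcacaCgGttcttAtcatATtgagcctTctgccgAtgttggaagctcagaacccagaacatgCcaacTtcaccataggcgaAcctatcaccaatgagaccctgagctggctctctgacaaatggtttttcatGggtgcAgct
Orm2: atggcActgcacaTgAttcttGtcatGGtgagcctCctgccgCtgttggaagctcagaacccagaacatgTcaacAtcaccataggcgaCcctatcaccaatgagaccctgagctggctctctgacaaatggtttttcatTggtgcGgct
Here 13 of 150 bases differ, most of them early, and a long stretch near the end of this window is the same in both. Windows of 50 bases were shared with another gene for 20.4% of Orm1, 22.7% of Orm2 and 3.59% of Orm3, and windows of 100 bases for 6.95% of Orm1 and of Orm2. Lcn2, Hp and Hpx shared no 50-base window with another gene. No source used here gives the read length or says how reads that match several genes were treated, so the split of reads within the Saa1 and Saa2 pair and among the orosomucoid genes is uncertain. RefSeq also lists Saa2 as an older name of Saa1 and the reverse. Each symbol taken was therefore checked against the RefSeq symbol of its Entrez ID, 20208 for Saa1 and 20209 for Saa2, and all 10 were equal. Promoters and coding sequences were taken by gene symbol.

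All 10 genes had a higher group value in Huwe1_LKO livers than in WT livers, and 4 of them, Saa3, Orm2, Lcn2 and Hpx, rose (called at an adjusted p under 0.05) in the authors' deposited table. None fell. Across all 16640 genes the background was 4.41% called higher and 5.56% called lower by the same rule, 734 and 925 genes. Over all genes, fold changes centred on the most abundant eighth of genes gave 1168 higher and 625 lower. Centred on the hepatocyte markers they gave 563 higher and 1270 lower. These centrings shift log2 fold changes by 0.08 up and 0.06 down. The smallest of the 10 genes is 0.54, so none of them could fall below 0 by such shifts. The median log2 fold change of Huwe1_LKO over WT (log2FC) of the 10 genes in the authors' deposited table was 1.18, against 0.02 over all genes. At an unadjusted p under 0.05, 7 of the 10 passed. Bulk RNA cannot tell apart a change in the number of cells that make a transcript from a change in RNA per cell. Huwe1 itself was at 1784 in Huwe1_LKO livers and 2666 in WT livers per the authors' deposited table (log2FC -0.58, adjusted p = 0.000425), 66.9% of the WT value. Which part of the transcript was deleted was not analysed here.

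**Figure D1:**
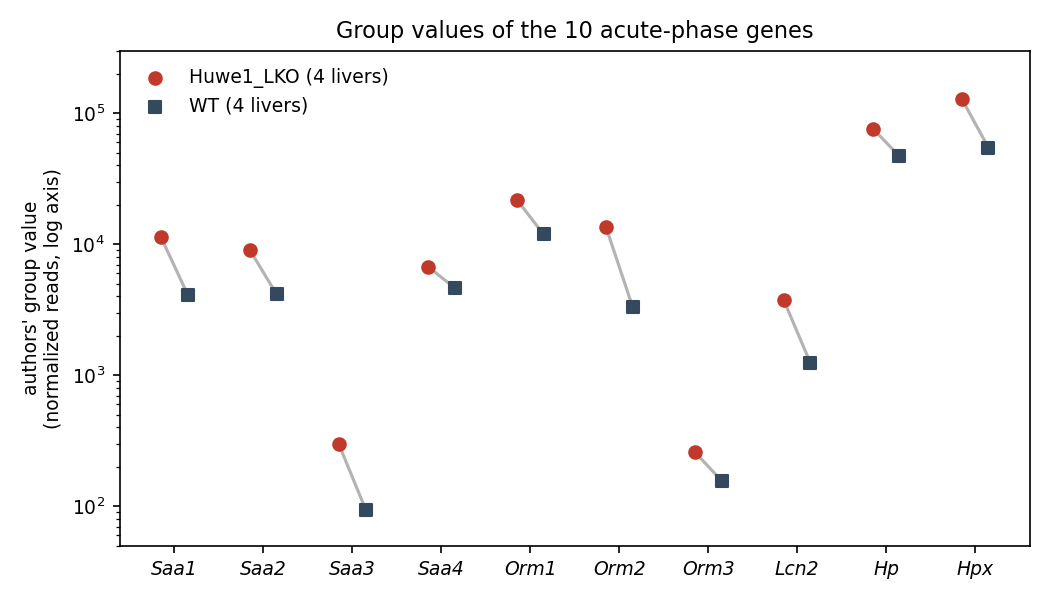
Authors' group value of each gene, in normalized reads on a log axis, for Huwe1_LKO (red circles, left) and WT (dark squares, right). Each point is 1 value for 4 livers and has no error bar because values per liver were not analysed here. The Huwe1_LKO point lies above the WT point for all 10 genes, and Hp and Hpx stand highest in both groups.

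The haem and haemoglobin carriers were the most abundant of the set. Hpx, the haem carrier (chromosome 7, 105591611 to 105600116 in GRCm38), stood at 129043 in Huwe1_LKO livers and 54703 in WT livers in the authors' deposited table. That is a 2.36-fold rise, with a 95% interval of 1.57 to 3.54 and an adjusted p of 0.00102. This interval, like those that follow, is of the shrunken fold change. Hpx alone made up 0.736% of all normalized reads in Huwe1_LKO livers, against 0.315% in WT livers, and its place among all genes by value was 14 in Huwe1_LKO and 40 in WT. By the size of the difference, 74340 normalized reads, it was the 4th largest gain of the table. Hp (chromosome 8, 109575128 to 109579172), whose protein captures haemoglobin, was at 76442 in Huwe1_LKO livers and 46986 in WT livers in the authors' deposited table. Its 1.63-fold difference (95% interval 1.07 to 2.47) had an unadjusted p of 0.0227 and an adjusted p of 0.144, and was not called. Hpx was thus 1.69 times the value of Hp in Huwe1_LKO livers and 1.16 times in WT livers, and this shift between the pair was not tested. Per kilobase of the deposited gene length, Hpx reached 86664 and Hp 56042 in Huwe1_LKO livers, against 36738 and 34447 in WT livers, so that Hpx and Hp ranked first and second of the 10 in both groups.

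Among the orosomucoids, Orm2 had the largest fold change of all 10 genes. Orm2 (chromosome 4, 63362449 to 63365877) was at 13618 in Huwe1_LKO livers and 3338 in WT livers in the authors' deposited table, 4.08-fold higher (95% interval 1.89 to 8.79, adjusted p = 0.00637). Orm1 was the more abundant copy in both groups, with 21903 in Huwe1_LKO livers and 11886 in WT livers in the authors' deposited table. Its 1.84-fold difference was not called (95% interval 0.958 to 3.55, adjusted p = 0.293). Orm3, a minor copy, had 259 in Huwe1_LKO livers and 157 in WT livers in the authors' deposited table, and was not called either (adjusted p = 0.555). Orm2 made up 38.3% of the Orm1 and Orm2 reads in Huwe1_LKO livers, against 21.9% in WT livers. This share depends on how shared reads were divided, and the values behind it follow shrunken fold changes. The sum of the family, which follows them too, is therefore also given. The 3 orosomucoid genes together held 35780 normalized reads in Huwe1_LKO livers and 15381 in WT livers, 2.33 times as many, a sum that carries no test.

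The serum amyloid genes lie in a cluster of 42316 bases on chromosome 7, from 46711998 to 46754313. Saa3, the form that macrophages and adipocytes also make, was by far the least abundant, with 296 in Huwe1_LKO livers and 94.3 in WT livers in the authors' deposited table. It had the smallest p of the 10 genes, with a 3.14-fold rise (95% interval 1.83 to 5.39, adjusted p = 0.00098). The major acute-phase forms Saa1 and Saa2 began from nearly equal WT values. Saa1 reached 11288 in Huwe1_LKO livers, against 4120 in WT livers, in the authors' deposited table, a 2.74-fold difference (95% interval 1.30 to 5.76) with an adjusted p of 0.0685. Saa2 reached 8991 in Huwe1_LKO livers, against 4139 in WT livers, in the authors' deposited table, a 2.17-fold difference (95% interval 1.08 to 4.38) with an adjusted p of 0.176. Neither passed over all genes, although both had an unadjusted p under 0.05 (0.00777 for Saa1 and 0.0300 for Saa2). Summed over the pair, the values were 20279 in Huwe1_LKO livers and 8259 in WT livers, 2.46 times as many, with no test. Saa4, which is made constitutively and responds little to inflammation, differed least of the 10, with 6759 in Huwe1_LKO livers and 4641 in WT livers in the authors' deposited table (1.46-fold, 95% interval 0.932 to 2.28, adjusted p = 0.372). The deposited length of Saa4, 2100 bases, is more than that of the other serum amyloid genes, so per kilobase it was at 3219 in Huwe1_LKO livers and 2210 in WT livers, below both Saa1 (18505 in Huwe1_LKO, 6753 in WT) and Saa2 (14739 in Huwe1_LKO, 6786 in WT).

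Lcn2 (chromosome 2, 32384637 to 32387739) was at 3743 in Huwe1_LKO livers and 1236 in WT livers in the authors' deposited table. It rose 3.03-fold (95% interval 1.42 to 6.45), and its adjusted p of 0.0434 was the closest to the threshold among the genes that passed. Centred on the hepatocyte markers, Lcn2 was no longer called (adjusted p = 0.0506). Just outside stood Saa1 at 0.0685, which was called when fold changes were centred on the most abundant eighth of genes (adjusted p = 0.0467). Summed over the 10 genes, the group values were 272342 in Huwe1_LKO livers and 131299 in WT livers, which is 1.55% of all normalized reads in Huwe1_LKO and 0.757% in WT. Hp and Hpx supplied 205485 of these in Huwe1_LKO livers and 101689 in WT livers.

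**Figure D2:**
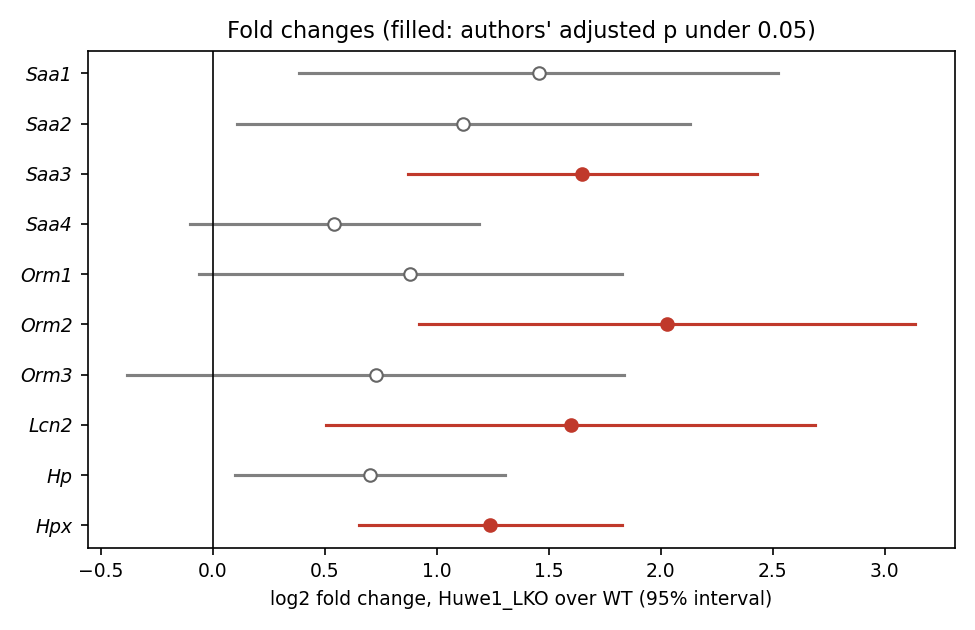
Log2 fold change of Huwe1_LKO over WT for each gene, with the 95% interval from the standard error that the authors' p implies. Filled red points passed the authors' adjusted p of 0.05, which 4 genes did. The intervals of Saa4, Orm1 and Orm3 reach below 0, and the widest belong to Orm3, Orm2, Lcn2 and Saa1.

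The standard error on the log2 scale that the authors' p implies was large for most of the abundant members. Among the 8 members with a mean group value of 1000 or more, all but Saa3 and Orm3, it ran from 0.30 for Hpx to 0.57 for Orm2 with a median of 0.50, while the median over all 2196 genes of that level was 0.13. No gene of the table had an error above 0.57, and Orm2 (0.57), Orm3 (0.57), Lcn2 (0.56) and Saa1 (0.55) lay at or near this ceiling. Errors there belong to the shrunken fold changes and do not give the precision of unshrunken ones. Away from the ceiling, Hp and Hpx had errors above those of 89.1% of 55 and 82.9% of 41 genes within 2-fold of their level. An error of 0.5 or more was found in 19 of the 2196 abundant genes, and 4 of these 19 were Saa1, Saa2, Orm2 and Lcn2. A log2FC of 1 or more was listed for 20 of the 2196 in the authors' deposited table, and Saa1, Saa2, Orm2, Lcn2 and Hpx were 5 of these 20. Of the 20, 16 were called, and Orm2, Lcn2 and Hpx were 3 of these 16. How the single livers spread within each group cannot be read from group values.

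**Figure D3:**
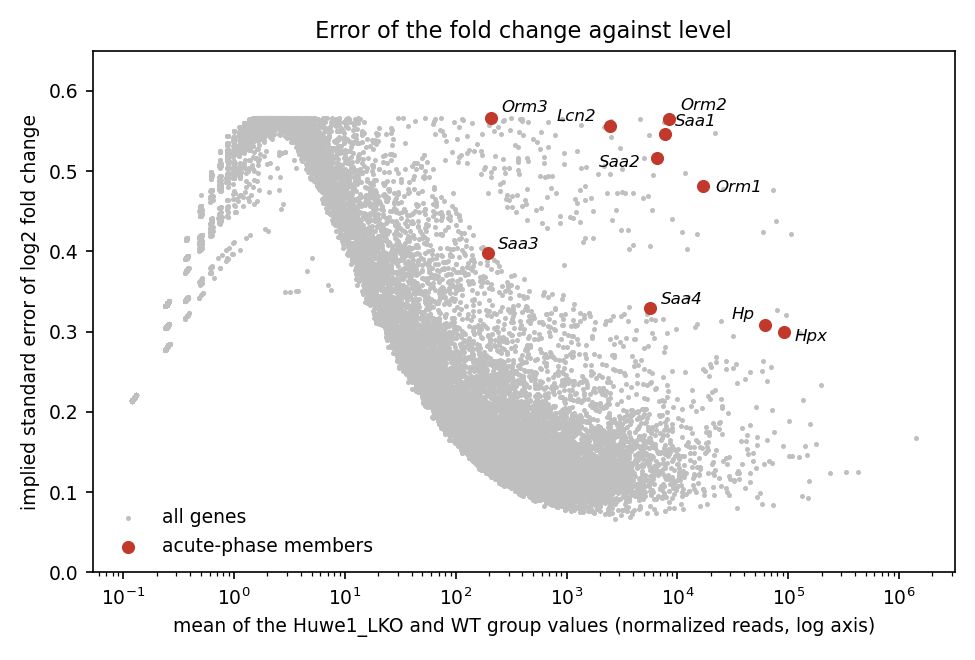
Implied standard error of the log2FC (vertical axis) against the mean of both group values in normalized reads (horizontal log axis) for 16640 genes in grey and the 10 acute-phase genes in red. Grey points climb with level to a ceiling of 0.57 among genes with few reads and then fall to a median of 0.13 among genes at 1000 or more. The red points lie between 0.30 and 0.57, each above most grey points of like level. Orm2 lies above all 386 genes within 2-fold of its level.

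Among the 211 genes with a mean group value of 10000 or more, 35 were called higher and 33 lower in the authors' deposited table. Hpx was the 5th by log2FC among them. Among those above it were Fetub (fetuin-B, 1.58), Gstp1 (a glutathione transferase, 1.41) and C3 (complement C3, 1.28), as log2FC values in the authors' deposited table. Orm1 was 13th with 0.88 and Hp 18th with 0.70. At the other end stood Scd1 (-3.21), Fasn (-2.18) and Thrsp (-1.45), all of lipogenesis, the peroxisomal thiolase Acaa1b (-2.04) and the urinary protein gene Mup19 (-1.84) in the same deposited table. Acaa1b and Mup19 have close copies, so their values are uncertain. Of the 12 genes nearest in level to the 4 genes that rose, 3 for each, 1 was called higher and 4 lower. The shares over all genes were 4.41% higher and 5.56% lower.

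Genes that flank the members were not among those called. The 20 measured genes nearest to the 5 loci, 2 on each side, had a median log2FC of 0.05 in DESeq2's deposited result, and none had an adjusted p under 0.05. Over all genes 4.41% were called higher and 5.56% lower, and 20 genes are too few to tell 0 calls from those shares. Saal1 and Hps5 on the left and right of the serum amyloid cluster had deposited log2FC values of 0.21 and -0.06. Akna, next to Orm2, had 0.49 with an adjusted p of 0.426 in the authors' deposited table.

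Of 31 other positive acute-phase genes, 10 rose, 0 fell and 21 were not called by the authors' deposited table, beside a background of 4.41% called higher. Their median log2FC was 0.49, against 0.02 over all genes. C3, the central complement protein, was at 222867 in Huwe1_LKO livers and 91989 in WT livers in the authors' deposited table (adjusted p = 8.37e-10), and Cfb, a factor of the alternative complement pathway, at 25721 in Huwe1_LKO livers and 16403 in WT livers (adjusted p = 9.33e-06). The metallothioneins Mt1 and Mt2, which bind zinc, had log2FC values of 2.20 and 1.94 in that deposited table (adjusted p = 0.00228 and 0.0102). Fgl1, a hepatocyte-secreted fibrinogen-like protein, rose by 1.81 and Cd14, a lipopolysaccharide co-receptor, by 1.21, as deposited log2FC values. Smaller rises were seen for Itih4 (0.86), Serpina10 (0.73), Serpina1a (0.49) and Agt (0.39) in the authors' deposited table. Serpina1a belongs to a family of near-identical copies and is uncertain for that reason. Crp, a weak acute-phase gene in mice, had 0.24, Hamp, the iron hormone hepcidin, -0.20, and Lbp 0.16 in the deposited table, and none of these was called. The fibrinogen chains Fga (0.47), Fgb (0.58) and Fgg (0.49) were not called either.

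Of 9 listed genes that usually fall in an acute phase, the authors' deposited table has 2 higher, 1 lower and a median log2FC of 0.18. Over all genes 4.41% were called higher and 5.56% lower. Most of the 9 are abundant, a level at which both shares were larger. Ahsg, fetuin-A, was at 194140 in Huwe1_LKO livers and 108033 in WT livers in that deposited table (adjusted p = 6.49e-17), and the corticosteroid carrier Serpina6 had a log2FC of 0.48 (adjusted p = 0.0106). The antithrombin gene Serpinc1 fell by 0.29 on the log2 scale in the authors' deposited table (adjusted p = 0.00648). Albumin (Alb, 0.45), transthyretin (Ttr, 0.18) and transferrin (Trf, 0.18) were not called, as deposited log2FC values with adjusted p of 0.0631, 0.589 and 0.791.

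Transcripts of most cytokines listed as inducers of acute-phase genes were scarce in both groups. Cytokine protein was not measured, and whether any of them acted on the 10 genes was not tested. Of 9 listed inducers, Il17a and Il22 had no row in the table. None of the other 7 was called by DESeq2's deposited adjusted p, and 0 had an unadjusted p under 0.05. Over all genes 4.41% were called higher and 5.56% lower. Only 2 of the 7 had a mean group value of 10 or more, so the lack of calls says little about change. Il6 was listed at 0.721 in Huwe1_LKO livers and 0.498 in WT livers, Osm at 1.67 in Huwe1_LKO and 1.30 in WT, and Tnf at 6.49 in Huwe1_LKO and 6.61 in WT, per the authors' deposited table. Il1b was at 54.2 in Huwe1_LKO livers and 28.2 in WT livers, and Il1a at 55.0 in Huwe1_LKO and 44.0 in WT, in the authors' deposited table, with adjusted p of 0.258 and 0.653. Lif had 3.39 in Huwe1_LKO livers and 3.84 in WT livers, and Il11 0.362 in Huwe1_LKO and 0.397 in WT, in the same deposited table.

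Receptors and transducers of these cytokines included 4 of 17 genes that rose and 0 that fell by the authors' deposited table, and their median log2FC was 0.28. Over all genes 4.41% were called higher. Il1r1, the interleukin-1 receptor, was at 1092 in Huwe1_LKO livers and 401 in WT livers (adjusted p = 0.000944), and Il6ra, the interleukin-6 receptor, at 396 in Huwe1_LKO and 191 in WT (adjusted p = 0.00185), per the authors' deposited table. Lifr, the receptor for leukaemia inhibitory factor, had a deposited log2FC of 0.91 (adjusted p = 4.72e-07). Socs3, the feedback inhibitor that STAT3 induces, had one of 1.02 (adjusted p = 0.0205). Stat3 (0.32), the shared receptor subunit Il6st (0.17) and Nfkbia (0.44) were not called in the authors' deposited table. Of 12 listed transcription factors, Rela, the p65 subunit of NF-kappaB, rose (0.36, adjusted p = 0.00162) and so did Hnf4a, a hepatocyte identity factor (0.37, adjusted p = 0.0318), as deposited log2FC values. These 2 are 16.7% of that list, beside the same 4.41%. Cebpb (0.18), Cebpd (0.36) and Cebpa (-0.10) were not called, with adjusted p of 0.768, 0.689 and 0.692 in the authors' deposited table.

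Of 10 receptors known or reported to bind the members' proteins, the authors' deposited table calls 0 higher and 1 lower, beside 5.56% lower over all genes. The gene that fell was Cd36, a scavenger and fatty acid receptor reported to bind serum amyloid A, with 362 in Huwe1_LKO livers and 1714 in WT livers (adjusted p = 8.95e-12). Cd163, the macrophage receptor for haptoglobin and haemoglobin, was at 116 in Huwe1_LKO livers and 73.2 in WT livers in the authors' deposited table (adjusted p = 0.328). Lrp1, which takes up haemopexin and haem, had a deposited log2FC of 0.16 (adjusted p = 0.695). In haem and iron handling, 1 of 15 genes fell and 0 rose, and this share of 6.67% is near the 5.56% of all genes called lower. The gene was the ferritin light chain Ftl1, at 64175 in Huwe1_LKO livers and 82160 in WT livers in the authors' deposited table (adjusted p = 0.000643). Haem oxygenase 1 (Hmox1), which degrades haem and is induced by it, had a deposited log2FC of -0.27 and was not called (adjusted p = 0.722). The globin genes Hba-a1 (0.07) and Hbb-bs (-0.20) were not called in the authors' deposited table, and the summed value of 8 erythroid markers was 16507 in Huwe1_LKO livers and 17277 in WT livers.

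Markers of other cell types that can make Lcn2 and Saa3 were measured beside them. Of 13 neutrophil markers, 12 had a log2FC above 0, beside 53.1% of all genes. The authors' deposited table calls 2 higher, S100a9 (79.1 in Huwe1_LKO livers, 25.6 in WT livers) and Retnlg (11.3 in Huwe1_LKO, 3.78 in WT), beside 4.41% of all genes. Only 7 of the 13 had a mean group value of 10 or more, and Retnlg was not one of these 7. The summed value of the 13 was 357 in Huwe1_LKO livers and 186 in WT livers. No marker was listed at 0. Ly6g, the only one of the 13 with a log2FC below 0, was at 5.02 in Huwe1_LKO livers and 7.52 in WT livers. It was not called in the authors' deposited table (adjusted p = 0.628). None of 12 macrophage markers was called by DESeq2's deposited adjusted p, and 0 had an unadjusted p under 0.05. Of these 12, 11 had a log2FC above 0, beside 53.1% of all genes. Their summed value was 3425 in Huwe1_LKO livers and 2843 in WT livers. Of 5 adipocyte markers in the table none was called by DESeq2's deposited adjusted p, while 2 had an unadjusted p under 0.05. Both had lower values in Huwe1_LKO livers, Cfd with 57.8 in Huwe1_LKO and 135 in WT and Retn with 1.23 in Huwe1_LKO and 3.30 in WT, per the authors' deposited table. The sum of the 5 was 81.8 in Huwe1_LKO livers and 161 in WT livers, and 3 of the 5 had a log2FC below 0. The defining marker Adipoq was at 0.394 in Huwe1_LKO livers and 0.368 in WT livers in the authors' deposited table. None of 10 biliary and stellate markers was called by DESeq2's adjusted p, with 1, Spp1, at an unadjusted p under 0.05. Of the 10, 8 had a log2FC above 0 and 2 below. Their summed value was 2900 in Huwe1_LKO livers and 1972 in WT livers. Most of this difference was Spp1, at 1410 in Huwe1_LKO and 722 in WT in the authors' deposited table. Over all genes 4.41% were called higher and 5.56% lower, and lists of 5, 10 or 12 genes are too few to tell 0 calls from those shares. The part of the listed cell types, neutrophils included, in the values of Lcn2 and Saa3 was not tested. All 12 hepatocyte markers stood at 8990 or more in both groups, and 2 of them (16.7%) rose, Hnf4a among them. The 4.41% called higher over all genes is not the share at this level. Among the 211 genes with a mean group value of 10000 or more, 35 were called higher. An excess of calls among the hepatocyte markers can therefore not be read from their 16.7%. The median log2FC of the hepatocyte markers was 0.06 by the authors' deposited table.

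**Figure D4:**
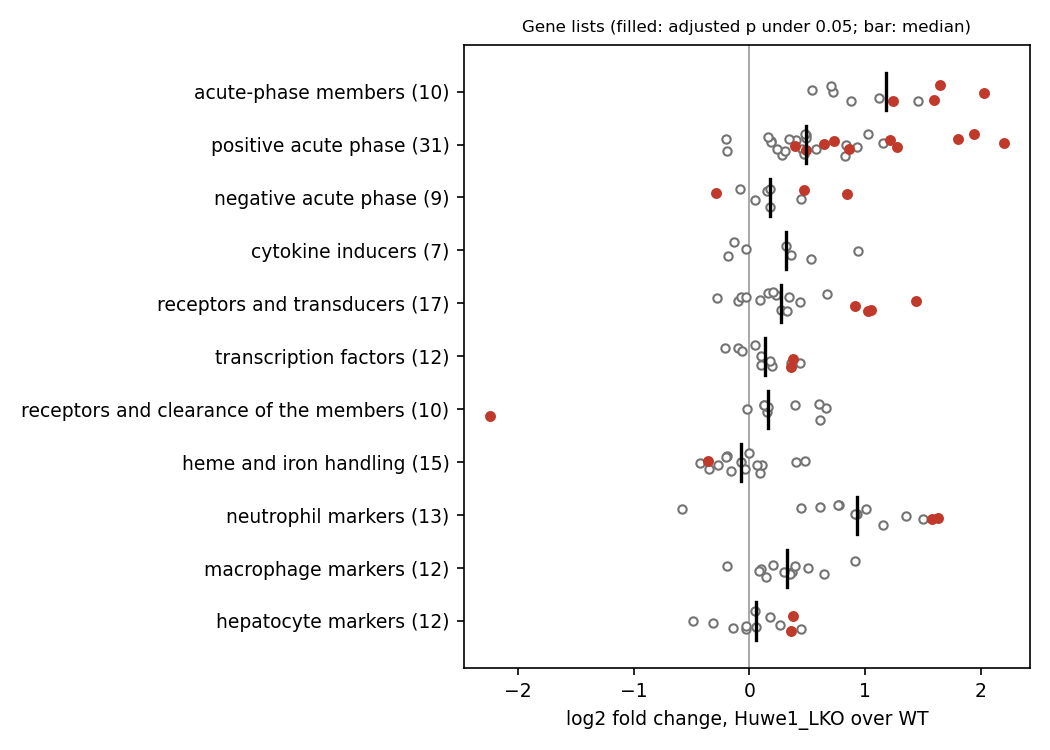
Log2 fold change of Huwe1_LKO over WT for each gene of the 10 acute-phase genes (top) and of 10 other lists, with the number of genes in brackets. Filled red points passed the authors' adjusted p of 0.05 and black bars are medians. The acute-phase genes have the highest median, 1.18, followed by the neutrophil markers at 0.93 and the other positive acute-phase genes at 0.49.

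The promoters of the members were read from RefSeq (GRCm38.p6), which held 8 of the 10 genes and not Orm1 or Hp. They are shown because C/EBP, STAT3 and NF-kappaB sites near the start are the known switches of acute-phase genes. Each sequence is the 250 bases before the annotated start on the gene's own strand, with motif matches on either strand in capitals. The start is the one the promoter table uses, and for Saa1, Saa3 and Orm3 it lies inside the RefSeq span of the gene, so that the Saa3 window falls wholly and the Saa1 and Orm3 windows partly within that span. They are those of Saa1 (chr7:46742981-46743230, minus strand), Saa2 (chr7:46751583-46751832, plus), Saa3 (chr7:46715677-46715926, minus), Orm2 (chr4:63362199-63362448, plus), Orm3 (chr4:63355908-63356157, plus), Lcn2 (chr2:32387740-32387989, minus) and Hpx (chr7:105600117-105600366, minus).
Saa1: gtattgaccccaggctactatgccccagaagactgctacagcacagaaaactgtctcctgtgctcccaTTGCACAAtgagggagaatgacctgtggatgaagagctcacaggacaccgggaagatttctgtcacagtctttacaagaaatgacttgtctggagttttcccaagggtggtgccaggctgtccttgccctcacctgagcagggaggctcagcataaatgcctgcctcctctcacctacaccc
Saa2: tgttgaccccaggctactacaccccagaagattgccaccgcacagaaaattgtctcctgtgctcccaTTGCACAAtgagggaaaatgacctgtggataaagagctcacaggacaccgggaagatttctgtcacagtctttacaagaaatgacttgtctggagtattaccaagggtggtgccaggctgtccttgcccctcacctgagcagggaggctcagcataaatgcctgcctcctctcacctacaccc
Saa3: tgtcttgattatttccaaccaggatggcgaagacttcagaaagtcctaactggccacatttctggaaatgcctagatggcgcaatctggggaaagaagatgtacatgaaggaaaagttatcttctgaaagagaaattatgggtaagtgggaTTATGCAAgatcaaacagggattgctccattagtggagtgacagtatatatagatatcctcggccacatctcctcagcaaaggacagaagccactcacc
Orm2: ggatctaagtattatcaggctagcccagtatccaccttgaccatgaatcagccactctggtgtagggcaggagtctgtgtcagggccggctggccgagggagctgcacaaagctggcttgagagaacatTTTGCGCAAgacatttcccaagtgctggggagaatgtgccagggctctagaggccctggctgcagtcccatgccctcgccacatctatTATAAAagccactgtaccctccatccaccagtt
Orm3: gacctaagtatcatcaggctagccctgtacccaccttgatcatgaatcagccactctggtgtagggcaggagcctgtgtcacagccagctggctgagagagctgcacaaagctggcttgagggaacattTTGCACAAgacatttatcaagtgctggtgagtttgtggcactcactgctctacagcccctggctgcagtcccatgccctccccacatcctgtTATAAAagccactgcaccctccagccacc
Lcn2: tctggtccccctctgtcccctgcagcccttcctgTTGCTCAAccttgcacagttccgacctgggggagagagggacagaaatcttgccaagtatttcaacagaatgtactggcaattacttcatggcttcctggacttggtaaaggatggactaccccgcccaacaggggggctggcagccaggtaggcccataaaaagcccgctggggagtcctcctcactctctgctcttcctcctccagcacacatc
Hpx: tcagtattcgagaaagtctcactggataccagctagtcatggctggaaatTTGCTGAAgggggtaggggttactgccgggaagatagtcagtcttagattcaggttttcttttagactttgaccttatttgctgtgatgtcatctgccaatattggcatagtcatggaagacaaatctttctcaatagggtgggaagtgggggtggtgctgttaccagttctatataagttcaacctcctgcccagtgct
The Saa1 and Saa2 promoters were 94.8% identical over 251 aligned positions and those of Orm2 and Orm3 85.5% over 255, whereas Saa1 and Saa3 shared 48.5%. The C/EBP pattern TTGCNNNAA matched in Orm2 and Saa4, at sites that overlap those of the next pattern, and in 8.29% of 32841 promoters of the same length. An 8-letter form, TTGCNNAA, was added after the sequences had been seen, and it matched in all 8 promoters, against 9.57% of the 32841. Because the pattern was picked with these sequences in view, its count over the members is a description only. It lies 120 to 113 bases before the start in Orm2, 121 to 114 in Orm3, 99 to 92 in Saa3 and 182 to 175 in Saa1, and overlaps no TATA box. The TATA box TATAAA matched in Orm2 and Orm3, against 12.4% of all promoters. No match was found in the 8 windows for the STAT pattern TTCNNNGAA (7.02% of all promoters), the E-box CACGTG (6.02%) or the kappaB consensus (3.90%), which says only that these letters are absent from these windows. Orm2, which rose, and Orm3, which was not called, both hold the 8-letter pattern and the TATA box, and Saa4, which was not called, holds the 8-letter pattern.

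**Figure D5:**
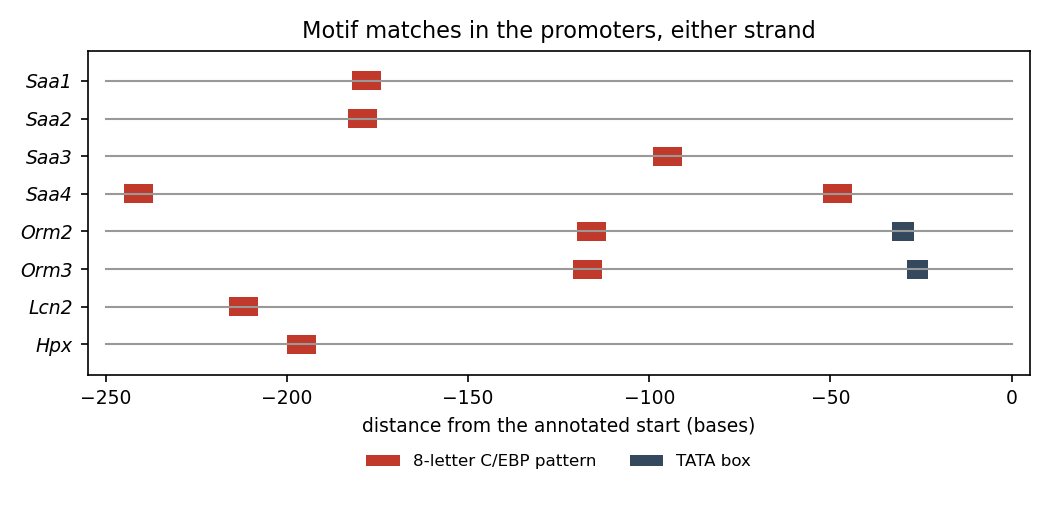
Positions of motif matches in the promoters of 8 acute-phase genes, as distance in bases from the annotated start at the right. Red blocks mark the 8-letter C/EBP pattern and dark blocks the TATA box. The 8-letter pattern is found in every row, between 245 and 45 bases before the start, and the TATA box in Orm2 and Orm3.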

How the data were processed

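Whole liver RNA of 8 mice, 4 Huwe1_LKO and 4 WT by the genotype in their titles, was made into libraries and sequenced at BGI Genomics, per the labels' protocols. The submitters' processing notes name the build mm10 and DESeq2. For the aligner, counter, versions and filters, no source used here gives a name.

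The authors deposited 1 table of 16640 genes. It gives, per the file headers, expression as a single signal value for each gene in each group, scaled for depth. They summed to 17533080 in Huwe1_LKO and 17347886 in WT. Per the file headers a further column is the log2 fold change (KO/WT), and it equals the log2 ratio of the group values to within 4.71e-08. Benjamini-Hochberg adjustment of the authors' unadjusted p-value over all genes gave their adjusted p-value to within 1.74e-06. In 707 genes with about 1 read over the 8 livers, the log2 fold change was 0.11 to 0.12 in size and both groups stood above 0, so fold changes appear shrunken toward 0 and the group values follow the shrunken ratio. Depth per liver is unknown.

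Calls are the authors' own. Standard errors were computed as the log2 fold change over the normal score of the unadjusted p, and 95% intervals from them. This assumes a Wald test, which no source states, and no error exceeded 0.57. Each p-value sets the group difference against the error that the authors' fit estimated. No source says how the livers were sampled, so p-values speak only for these 8 livers. Members and lists were chosen with earlier results of these data known, and lists have no set test. Named genes are the 10 members, Huwe1, listed genes that passed or the most abundant that did not, the cytokines, and the 5 largest and 5 smallest changes among abundant genes. Other genes that did not pass, the flanking genes among them, were named after their values were seen. Some genes that this rule names are not reported here. Coordinates and promoters are from RefSeq (GRCm38.p6) and coding sequences from GENCODE M21. IDs of 16608 genes were found in RefSeq. Python 3.11.15, pandas 2.3.3, scipy 1.17.1 and Biopython 1.88 were used, and the error and adjustment steps were tested on simulated data. Alternatives covered thresholds, low-value filters, adjustment, centring, pseudocounts and summed copies.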

Additional observations from a re-analysis of the deposited data

How the results depend on the processing

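The count of 4 genes higher and 0 lower held, within 1.5 times, at thresholds of 0.01 and 0.1, with adjustment over genes with a mean value of 10 or more or of 100 or more, with a 2-fold minimum and under each of 3 centrings. The Benjamini-Yekutieli adjustment gave 2 higher, as a stricter rule. The median log2 fold change ran from 1.12 to 1.26 under the 6 alternatives, against 1.18 in the main setting. The allowed shift was the median implied error of the 10 genes, 0.50, which is wide and is not an error of the median. Among single genes, Lcn2 no longer passed when fold changes were centred on the hepatocyte markers (adjusted p = 0.0506), and Saa1 passed when they were centred on the most abundant eighth of genes (adjusted p = 0.0467), with log2 fold changes of 1.54 in both cases. These centrings shift all genes by 0.06 down and 0.08 up on the log2 scale. With the orosomucoid copies summed, the log2 ratio was 1.22, against 2.03 for Orm2 alone. No paired analysis was possible because the table holds 1 value per group, and leaving out single livers was not run for the same reason. Livers that decide a value can therefore not be named. Fold changes appear shrunken toward 0, so those of genes with low values may be understated. The same holds for abundant genes with errors near the ceiling of 0.57, such as Orm2, Lcn2 and Saa1.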
